A study of Arabidopsis thaliana with 12 samples.

Results

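CLE1, CLE14 and CLE16 are CLE peptide genes of Arabidopsis that stood lower after a Dof transcription factor gene had been switched on in roots. They are 3 of the 16548 genes tested, taken by symbol, and each is read by 1 entry of the array table. They were chosen because each fell past the threshold on deposited values in at least 1 of 3 lines. Their changes with estriol are therefore given as a description, with no test. Of 35 listed CLE genes, 17 were measured. Transcript levels had been measured in entire roots on 12 one-colour arrays. The lines each carried a Dof gene in ER8, an estrogen-inducible vector. S32/Col was the background of ER8Dof1.1, and SUC2p::GFP-GUS that of both ER8Dof2.2 and ER8PEAR2. Plants aged 68 h were moved to plates without estriol (mock) or with 10 µM estriol, an estrogen, and kept there for 16 h. The titles give 2 biological replicates for each of the 6 groups. The backgrounds differ between ER8Dof1.1 and the other lines, and a line without a Dof transgene was not analysed here. In each change with estriol, what the transgene and what estriol itself contributed cannot be told apart.

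CLE genes encode small secreted proteins, from which a short peptide near the C terminus is released and acts as a signal to receptor kinases on neighbouring cells. In roots some of these peptides, but not all, restrain stem cell or vascular divisions, and several act in the phloem, the tissue that conducts sugars. Dof proteins are plant transcription factors with a zinc finger, and several of them are made in the phloem. CLE14 is known as a peptide whose excess makes the root meristem lose its dividing cells, and it takes part in the arrest of root growth at low phosphate. CLE1 belongs to a group of CLE genes that nitrogen shortage induces in roots and that restrains lateral roots through the receptor kinase CLV1. No role is given here for CLE16 beyond that of a CLE peptide gene.

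CLE1 (AT1G73165) and CLE14 (AT1G63245) lie on chromosome 1 and CLE16 (AT2G01505) on chromosome 2, in the RefSeq annotation TAIR10.1. All 3 were matched to this annotation by name, since the Entrez numbers that came with their entries are not in it. The annotated span of CLE16 overlaps that of its neighbour AT2G01510. Peptide and promoter sequences were not analysed here.

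Levels are log2 signals as deposited, given array by array. Array medians lay at 5.94 to 6.16 in ER8Dof1.1, 5.41 to 5.58 in ER8Dof2.2 and 6.48 to 6.57 in ER8PEAR2, so levels of different lines are set side by side only after quantile normalization over all arrays. Replicate arrays of a group correlated at 0.988 to 0.995 over all entries. A group mean under the lower quartile of the table is called dim, and 0 of the 18 group means of CLE1, CLE14 and CLE16 were dim. PEAR2 (AT5G02460) had a change of 4.38 ± 0.20 (SE) in its own line and DOF2.2 (AT2G28810) one of 3.04 ± 0.27 in its own. DOF2.2 also had changes of 2.98 in ER8Dof1.1 and 2.04 in ER8PEAR2, and PEAR2 had changes of 1.02 in ER8Dof1.1 (adjusted p = 0.00293) and 0.13 in ER8Dof2.2 (adjusted p = 0.698). The Dof1.1 transcript was not analysed here. Of the list of root genes, 4 of 32 were measured, and none of them was dim in mock roots. With estriol 4, 4 and 3 of them fell in ER8Dof1.1, ER8Dof2.2 and ER8PEAR2, where 16.2%, 13.6% and 10.4% of all genes fell. The root glucosidase gene PYK10 stood at 13.22 and 13.04 in mock arrays of ER8Dof1.1. Of 24 shoot genes, 2 were measured: the stem cell peptide gene CLV3 was dim in every group, and the Rubisco activase gene RCA stood at 7.62 to 8.95.

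CLE14 had the largest change of the 3 genes in each line. In ER8Dof1.1 it stood at 8.03 and 8.64 in mock arrays and at 4.18 and 4.36 with estriol. In ER8Dof2.2 the levels were 8.01 and 7.60 in mock arrays and 3.80 and 3.77 with estriol. In ER8PEAR2 they were 8.41 and 8.52 in mock arrays and 6.59 and 6.74 with estriol. Both estriol arrays thus lay below both mock arrays in every line, and the step was smallest in ER8PEAR2. The change was -4.07 ± 0.21 in ER8Dof1.1, -4.02 ± 0.21 in ER8Dof2.2 and -1.80 ± 0.21 in ER8PEAR2 (log2, SE of the model, 2 arrays per group). These leave 5.97%, 6.16% and 28.7% of the mock signal. Only 0.429% of all genes had a lower value in ER8Dof1.1, 0.755% in ER8Dof2.2 and 2.46% in ER8PEAR2. In entire roots, fewer cells of a type and less RNA per cell cannot be told apart.

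**Figure D1:**
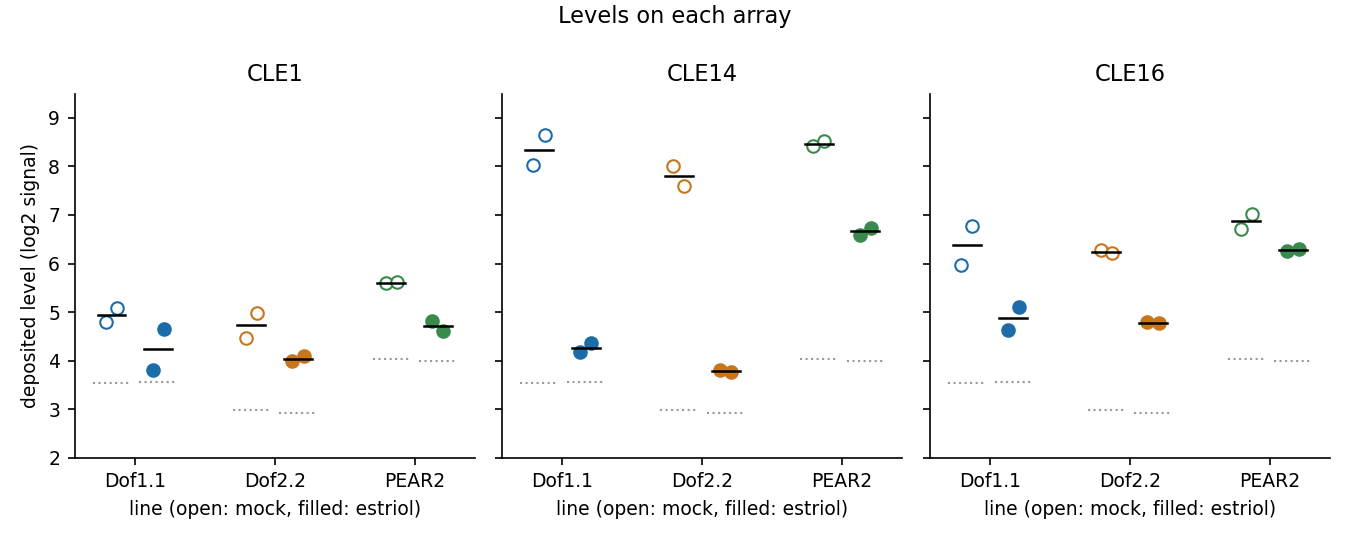
Deposited level (log2 signal) of CLE1, CLE14 and CLE16 on each of the 12 arrays, by line, with open circles for mock and filled circles for estriol. Black bars are means of 2 arrays and dotted lines the lower quartile of the table in that group. CLE14 drops from 8.03 and 8.64 to 4.18 and 4.36 in ER8Dof1.1 but from 8.41 and 8.52 only to 6.59 and 6.74 in ER8PEAR2.

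CLE16 had a change between those of CLE14 and CLE1 in ER8Dof1.1 and ER8Dof2.2 and the smallest of the 3 in ER8PEAR2. Its mock arrays of ER8Dof1.1 read 5.97 and 6.78 and its estriol arrays 4.64 and 5.10. In ER8Dof2.2 it went from 6.27 and 6.22 to 4.80 and 4.77. In ER8PEAR2 it went from 6.72 and 7.02 to 6.26 and 6.30. Treatments did not overlap in any line, and the gap between the nearest arrays was 0.87, 1.42 and 0.42 in ER8Dof1.1, ER8Dof2.2 and ER8PEAR2. The change was -1.51 ± 0.25, -1.46 ± 0.25 and -0.59 ± 0.25 (log2, SE) in the same order, which leaves 35.2%, 36.3% and 66.4% of the mock signal. The mock arrays of ER8Dof1.1 were the most spread, with an SD of 0.57 against 0.04 and 0.21 in the other lines.

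CLE1 had the smallest change in ER8Dof1.1 and ER8Dof2.2 and a larger one than CLE16 in ER8PEAR2. In ER8Dof1.1 it stood at 4.79 and 5.08 in mock arrays and 3.81 and 4.66 with estriol. The second of these estriol arrays lay only 0.13 below the nearest mock array. In ER8Dof2.2 the levels were 4.47 and 4.98, then 3.99 and 4.09, and in ER8PEAR2 5.59 and 5.62, then 4.82 and 4.61. The change was -0.70 ± 0.27, -0.68 ± 0.27 and -0.89 ± 0.27 (log2, SE) in ER8Dof1.1, ER8Dof2.2 and ER8PEAR2. That leaves 61.6%, 62.2% and 54.0% of the mock signal. Leaving out single arrays moved the change in ER8Dof1.1 between -0.28 without estriol array 1 and -1.12 without estriol array 2, and the change in ER8Dof2.2 between -0.43 and -0.94 without mock array 2 and mock array 1.

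On deposited values all 9 pairs of gene and line had both estriol arrays below both mock arrays, which the choice of genes in part fixed. Over all genes tested this held for 25.7% in ER8Dof1.1, 23.6% in ER8Dof2.2 and 28.2% in ER8PEAR2. After quantile normalization over all arrays it no longer held for CLE1 in ER8Dof1.1. There the mock arrays stood at 4.68 and 4.92 and the estriol arrays at 3.81 and 4.74. Past the threshold were 34.0%, 28.4% and 18.8% of genes, with 16.2%, 13.6% and 10.4% downward. On deposited values CLE1 passed in ER8PEAR2 alone, and CLE16 did not pass in ER8PEAR2. For the chosen genes these calls are the rule of the choice and not a test, so no p-values are given. Nearest to the threshold on its inner side was CLE1 in ER8PEAR2, at a change of -0.89. Nearest on its outer side among other CLE genes were CLE27 and CLE43 in ER8Dof1.1. There limma's adjusted p was 0.0593 at -0.92 for CLE27 and 0.0738 at -0.56 for CLE43. After quantile normalization over all arrays CLE27 and CLE43 passed there (adjusted p = 0.0304 and 0.0335), while CLE1 passed in none of the lines. The edge of the choice thus moved with the scaling.

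After common normalization the groups can be placed in order, as a description. How many of all genes have groups that stand apart in this way was not counted. CLE14 was highest in mock roots of ER8Dof1.1, ER8Dof2.2 and ER8PEAR2, at 8.32 ± 0.43, 8.27 ± 0.30 and 8.06 ± 0.10 (SD, n = 2), and these overlapped. Then came the estriol groups of ER8PEAR2 at 6.21 ± 0.13, ER8Dof2.2 at 4.46 ± 0.03 and ER8Dof1.1 at 4.32 ± 0.13, each apart from the next. CLE16 ran from mock ER8Dof2.2 roots (6.70 ± 0.06) over those of ER8PEAR2 (6.35 ± 0.24) and ER8Dof1.1 (6.28 ± 0.56), the last pair overlapping. Its estriol groups followed at 5.80 ± 0.04 (PEAR2), 5.42 ± 0.02 (Dof2.2) and 4.96 ± 0.31 (Dof1.1), each apart from the next. CLE1 was highest in mock ER8Dof2.2 roots (5.19 ± 0.35), which overlapped those of ER8PEAR2 (5.03 ± 0.03). The latter stood apart from mock ER8Dof1.1 roots (4.80 ± 0.17). Below these, the estriol groups of ER8Dof2.2 (4.72 ± 0.10), ER8Dof1.1 (4.27 ± 0.66) and ER8PEAR2 (4.19 ± 0.11) each overlapped with the group before. Among these estriol groups, ER8Dof1.1 overlapped both others, while ER8Dof2.2 (4.65 and 4.79) and ER8PEAR2 (4.27 and 4.11) did not overlap.

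The difference in response between lines asks whether a gene changed more in one line than in another. It was tested as an interaction in limma, with p-values adjusted over all 16548 genes, and it was not used to choose the genes, although the values that chose them enter it. CLE14 responded more strongly in ER8Dof1.1 than in ER8PEAR2, by -2.27 ± 0.30 (log2, SE; adjusted p = 0.00405). It also responded more strongly in ER8Dof2.2 than in ER8PEAR2, by -2.22 ± 0.30 (adjusted p = 0.00572). These are 4.81-fold and 4.66-fold differences, and same-numbered arrays gave changes of -3.85 and -4.28 in ER8Dof1.1, -4.21 and -3.83 in ER8Dof2.2 and -1.82 and -1.78 in ER8PEAR2. Of all genes, 2.91% passed for the first difference (1.24% higher, 1.67% lower) and 1.66% for the second (0.302% higher, 1.36% lower). Under 9 other settings the adjusted p lay between 0.00123 and 0.0183 for the first difference and 0.00137 and 0.0220 for the second, and leaving out each array in turn gave at most 0.0243 and 0.0377. Between ER8Dof1.1 and ER8Dof2.2 CLE14 differed by -0.04 (95% interval -0.71 to 0.62, adjusted p = 0.991), where 1.53% of genes passed (0.949% higher, 0.586% lower).

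For CLE16 the difference did not pass after adjustment. It was -0.92 ± 0.35 between ER8Dof1.1 and ER8PEAR2 (95% interval -1.70 to -0.13, unadjusted p = 0.0273, adjusted p = 0.243). Between ER8Dof2.2 and ER8PEAR2 it was -0.87 ± 0.35 (interval -1.66 to -0.08, unadjusted p = 0.0340, adjusted p = 0.375). The lowest adjusted p-values under any other setting or without any single array were 0.0604 and 0.110. Between ER8Dof1.1 and ER8Dof2.2 the difference was -0.04 (interval -0.83 to 0.74, adjusted p = 0.992). For CLE1 no difference passed: it was -0.01 (interval -0.85 to 0.82, adjusted p = 0.997) between ER8Dof1.1 and ER8Dof2.2. It was 0.19 (interval -0.65 to 1.03, adjusted p = 0.890) between ER8Dof1.1 and ER8PEAR2 and 0.20 (interval -0.63 to 1.04, adjusted p = 0.924) between ER8Dof2.2 and ER8PEAR2. These intervals span differences about as large as the change of CLE1 itself.

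**Figure D2:**
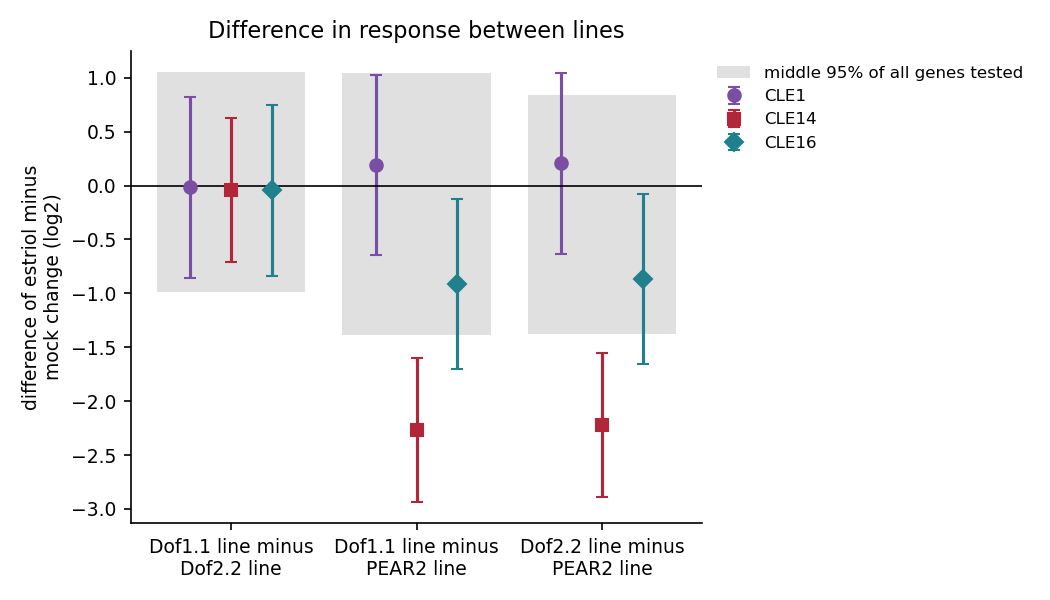
Difference of the estriol minus mock change (log2) between each pair of lines for CLE1, CLE14 and CLE16, with 95% intervals of the model, and the middle 95% of all genes tested in grey. CLE14 lies at -2.27 and -2.22 in the comparisons with ER8PEAR2, below the grey range, and at -0.04 between ER8Dof1.1 and ER8Dof2.2.

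In mock roots the 3 genes did not differ past the threshold between any lines after common normalization. The differences of CLE14 were 0.06 ± 0.21 (Dof1.1 minus Dof2.2), 0.26 ± 0.21 (Dof1.1 minus PEAR2) and 0.21 ± 0.21 (Dof2.2 minus PEAR2), with adjusted p = 0.918, 0.524 and 0.590. Those of CLE16 were -0.42, -0.07 and 0.35 (SE 0.25; adjusted p = 0.388, 0.904 and 0.423), and those of CLE1 were -0.39, -0.23 and 0.16 (SE 0.27; adjusted p = 0.469, 0.675 and 0.761). Of all genes, 3.70% (2% higher, 1.70% lower), 2.53% (1.18% higher, 1.35% lower) and 6.30% (2.92% higher, 3.38% lower) passed in the same order. On the values as deposited, all 3 genes stood lower in ER8Dof2.2 than in ER8PEAR2, at -0.66 for CLE14 (adjusted p = 0.0159), -0.62 for CLE16 (adjusted p = 0.0406) and -0.88 for CLE1 (adjusted p = 0.0120). There 13252 of 16548 genes passed, and all of these differences turned sign after quantile normalization.

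Many genes shared the smaller change in ER8PEAR2. Of 1982 genes past the threshold downward in both ER8Dof1.1 and ER8Dof2.2, 1644 (82.9%) changed less in ER8PEAR2 than in either. Median changes of the 1982 were -1.75, -1.59 and -1.08 in ER8Dof1.1, ER8Dof2.2 and ER8PEAR2. These genes were selected on the first pair of lines, which by itself favours smaller values in ER8PEAR2. CLE14 was therefore set beside the 15 other genes whose changes in ER8Dof1.1 and ER8Dof2.2 were within 0.25 of its own, a window chosen after the values were seen. Their changes in ER8PEAR2 ran from -3.31 to -1.41 with a median of -2.37, and 13 of the 15 were lower than the -1.80 of CLE14. For CLE16 there were 163 such genes, with a median of -0.99 in ER8PEAR2, and 140 of them were lower than the -0.59 of CLE16. For CLE1 there were 457, with a median of -0.48, and only 36 of them were lower than the -0.89 of CLE1. Against genes of like change in the other lines, CLE14 and CLE16 thus lay toward the small side in ER8PEAR2 and CLE1 toward the large side, as a description without a test. CLE1 passed the threshold in ER8PEAR2 alone, so its choice by itself favoured a large change there.

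**Figure D3:**
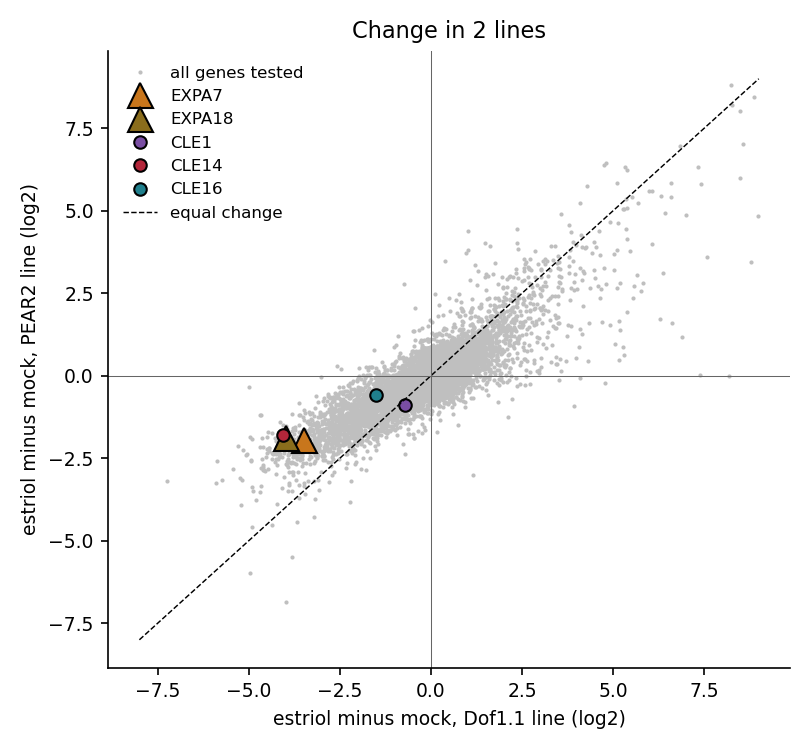
Estriol minus mock change (log2) of every gene tested in ER8Dof1.1 (horizontal) and ER8PEAR2 (vertical). Circles mark CLE1, CLE14 and CLE16, triangles the root hair expansin genes EXPA7 and EXPA18, and the dashed line equal change. CLE14 (-4.07 and -1.80) lies beside EXPA18 (-3.98 and -1.88), above the dashed line, and CLE1 (-0.70 and -0.89) lies close to it.

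The genes most like each member were found by Pearson's r over the 12 commonly normalized arrays, as a description in which the arrays share lines and treatments. Nearest to CLE14 were AT2G25260 (r = 0.996), AT1G51850 (0.995), AT3G13432 (0.994), AT2G18980 (0.994) and the nitrate excretion transporter gene NAXT1 (0.991). Their changes ran from -3.83 (NAXT1) to -5.86 (AT2G18980) in ER8Dof1.1 and from -1.89 (AT3G13432) to -2.83 (AT1G51850) in ER8PEAR2. AT2G25260, with changes of -4.02, -4.43 and -1.99, was first on deposited values too. Nearest to CLE16 were AT5G42860 (r = 0.992), AT1G44050 (0.976), AT3G53010 (0.969), AT5G60530 (0.967) and AT2G43600 (0.963). AT5G42860 had changes of -1.12, -1.02 and -0.64 in ER8Dof1.1, ER8Dof2.2 and ER8PEAR2 and was first on deposited values as well, while AT1G44050 ranked 525 there. CLE1 had looser matches, namely the ubiquitin-conjugating enzyme gene UBC16 (r = 0.914), AT4G22235 (0.905), LigB (0.899), AT1G54530 (0.892) and AT3G12710 (0.889). Among themselves, CLE14 and CLE16 had r = 0.927, CLE1 and CLE16 0.721, and CLE1 and CLE14 0.589 after common normalization. With 126 other genes more like CLE16 than CLE14 was, even the closest pair was not each other's best match. On deposited values the same pairs had r = 0.950, 0.884 and 0.818, so the distance of CLE1 from the others depended on the scaling.

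Neighbours on the chromosome gave a mixed picture. CLE1 sits between AT1G73160 and AT1G73170, which were both measured and fell in every line. The changes of AT1G73160 were -2.73, -2.49 and -1.56 (SE 0.19; adjusted p = 2.71e-06, 5.81e-06 and 0.00025) in ER8Dof1.1, ER8Dof2.2 and ER8PEAR2. It went from 7.64 and 7.94 to 5.02 and 5.11 in ER8Dof1.1 and from 7.83 and 7.99 to 6.12 and 6.58 in ER8PEAR2. The changes of AT1G73170 were -1.01, -0.95 and -0.51 (SE 0.14; adjusted p = 0.000307, 0.000568 and 0.0317). Both had larger changes than CLE1 in ER8Dof1.1 and ER8Dof2.2, and their changes in ER8PEAR2 were smaller than their others. The tested neighbours of CLE14 did not share its change. AT1G63240 stood at -0.01, 0.72 and -0.04 (SE 0.22; adjusted p = 0.989, 0.0337 and 0.936) and AT1G63250 at 0.28, 0.48 and 0.29 (SE 0.22; adjusted p = 0.373, 0.139 and 0.441). Beside CLE16, the overlapping gene AT2G01510 had changes of 0.23, 0.29 and 0.10 (SE 0.23; adjusted p = 0.505, 0.406 and 0.829). On the other side, the nearest tested gene was PAHX, which encodes a phytanoyl-CoA hydroxylase. It fell in ER8Dof1.1 at -0.80 ± 0.16 (adjusted p = 0.00382), with -0.39 and -0.43 in the other lines (adjusted p = 0.108 and 0.102).

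On deposited values, the other measured CLE genes that passed the threshold rose, while CLE27 and CLE43 passed downward in ER8Dof1.1 after quantile normalization. CLE43, dim in every group, had changes of -0.56, -0.42 and -0.29 on deposited values, none past the threshold. Its estriol arrays both lay below both mock arrays in every line, as did those of 25.7%, 23.6% and 28.2% of all genes in each line by itself. Of 35 genes on the CLE list, 17 were measured, 14 of them besides CLE1, CLE14 and CLE16. Among these 14, 4 rose and 0 fell in ER8Dof1.1, 6 and 0 in ER8Dof2.2, and 4 and 0 in ER8PEAR2. The absence of falls among them is fixed by the choice, since every CLE gene that fell was taken. At an unadjusted p under 0.05, 3, 0 and 0 of the 14 were lower, and the share of all genes at that threshold was not counted. Over all genes, 17.8%, 14.8% and 8.33% passed upward. Median changes of the 14 were 0.30, 0.28 and 0.22, and those of all 17 were 0.04, 0.15 and 0.16, against 0.11, 0.11 and 0.03 for all genes tested. The median of the 14 leaves out genes chosen for falling. CLE25, which encodes a peptide of the vascular tissue, rose by 2.43, 2.54 and 2.35 (SE 0.15; adjusted p = 1.25e-06, 1.02e-06 and 4.33e-06). Changes of the 14 ran from -0.92 (CLE27) to 2.84 (CLE42) in ER8Dof1.1, and their highest in the others was that of CLE41, at 3.21 and 3.26. TDIF, a phloem peptide that acts on the cambium, is made from CLE41 and CLE44, and CLE42 gives a similar one. In differences between lines, 2 further CLE genes passed. CLE20 differed between ER8Dof1.1 and ER8Dof2.2 by -1.56 (adjusted p = 0.0228), and CLE44 between ER8Dof1.1 and ER8PEAR2 by -1.60 (adjusted p = 0.0143), where it rose less. CLE44 also stood higher in mock ER8Dof2.2 roots than in those of ER8PEAR2, by 0.92 (adjusted p = 0.0243) after common normalization. CLE14 was the single CLE gene past the threshold in the difference between ER8Dof2.2 and ER8PEAR2.

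**Figure D4:**
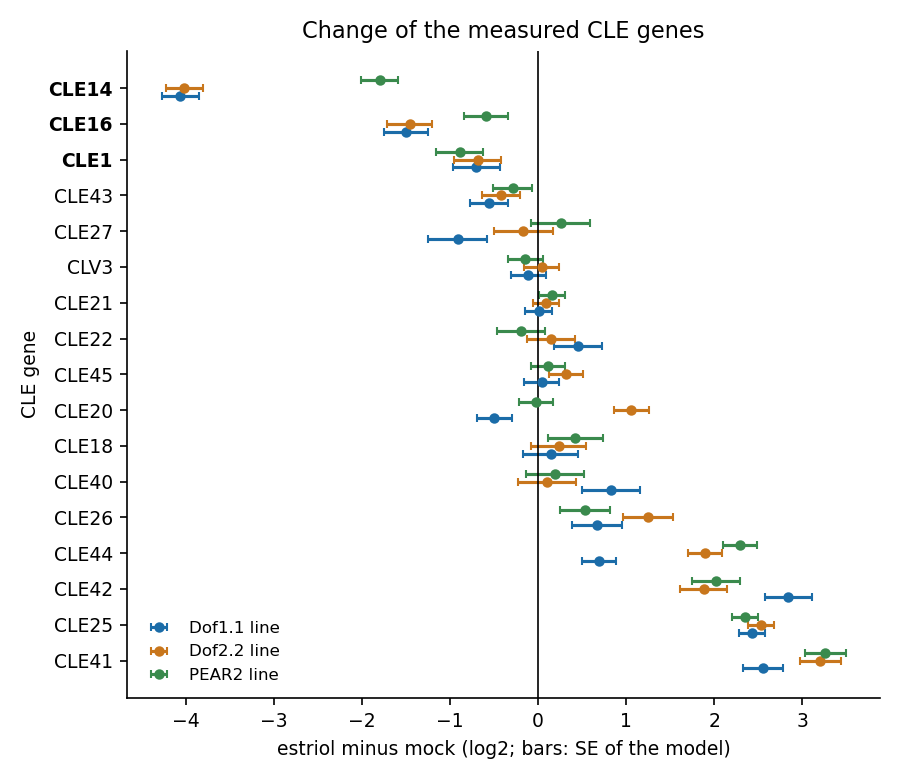
Estriol minus mock change (log2, with the SE of the model) of the 17 measured CLE genes in ER8Dof1.1, ER8Dof2.2 and ER8PEAR2, ordered by their mean. CLE14, CLE16 and CLE1 are at the top with the lowest means, CLE14 at -4.07, -4.02 and -1.80, while CLE41, at the bottom, reaches 3.26.

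Of 24 genes for CLE receptors and signalling, 5 were measured, and 3 rose and 1 fell in each line (background 17.8%, 14.8% and 8.33% upward and 16.2%, 13.6% and 10.4% downward). The gene that fell was AT4G28650 (PXL2), a receptor kinase gene related to that of the TDIF receptor. The changes of PXL2 were -1.62, -1.53 and -0.94 (SE 0.14; adjusted p = 9.66e-06, 1.73e-05 and 0.00085) in ER8Dof1.1, ER8Dof2.2 and ER8PEAR2. POL, a phosphatase gene that acts downstream of CLAVATA receptors, had gains of 1.16, 0.97 and 0.49 (SE 0.14; adjusted p = 0.000138, 0.000558 and 0.0408). MOL1, which encodes a receptor-like kinase that restrains the cambium, and OPS, a polar protein of the protophloem, were the other risers, with changes of 1.75, 1.56 and 2.02 for MOL1 and 0.91, 1.29 and 1.21 for OPS. The fifth, AT1G08590 (PXL1), stood at 0.34, 0.41 and 0.22 (adjusted p = 0.105, 0.0632 and 0.384) and passed in ER8Dof1.1 and ER8Dof2.2 after quantile normalization (adjusted p = 0.0355 and 0.0251). CLV1, CLV2 and CRN, receptor genes of CLE signalling in roots, were not analysed here. Differences between lines passed for 0 of the 5 in limma after adjustment, and at an unadjusted p under 0.05 for 0, 2 and 2 (Dof1.1 against Dof2.2, Dof1.1 against PEAR2, Dof2.2 against PEAR2). Of all genes, 1.53%, 2.91% and 1.66% passed after adjustment, and the share at the unadjusted threshold was not counted.

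CLE14 has been tied to low phosphate, and 3 of 31 genes on the phosphate list were measured. LPR1 encodes a ferroxidase that arrests root growth at low phosphate, and LPR2 its close relative. LPR1 went from 5.80 and 5.67 to 4.56 and 4.60 in ER8Dof1.1, with changes of -1.16, -0.87 and -0.48 (SE 0.15; adjusted p = 0.000219, 0.00173 and 0.0554) in ER8Dof1.1, ER8Dof2.2 and ER8PEAR2. LPR2 fell in ER8Dof1.1 at -0.70 (adjusted p = 0.00527) and stood at 0.06 and -0.06 in the others (adjusted p = 0.841 and 0.871). The phosphatase gene PS2, which phosphate starvation induces, stood at -0.34, -0.29 and -0.21 (adjusted p = 0.127, 0.201 and 0.426). None of these 3 differed in response between lines past the threshold, with adjusted p-values of 0.153 or more. Of 36 nitrogen genes, only the nitrate transporter gene NRT2.5 was measured, and it was dim in all groups.

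Root hairs are outgrowths of the root epidermis. Of 34 on the list 4 were measured, and 4, 3 and 2 of them fell in ER8Dof1.1, ER8Dof2.2 and ER8PEAR2, with 0 that rose. Over all genes, 16.2%, 13.6% and 10.4% fell and 17.8%, 14.8% and 8.33% rose. EXPA7 and EXPA18 encode expansins of root hair cells. EXPA7 went from 9.44 and 8.90 to 5.67 and 5.70 in ER8Dof1.1, from 9.41 and 9.13 to 4.83 and 4.94 in ER8Dof2.2, and from 9.67 and 9.62 to 7.65 and 7.76 in ER8PEAR2. Its changes were -3.49, -4.38 and -1.94 (SE 0.19; adjusted p = 5.25e-07, 2e-07 and 5.71e-05), and those of EXPA18 were -3.98, -5.17 and -1.88 (SE 0.15; adjusted p = 9.97e-08, 4.84e-08 and 2.17e-05). Like CLE14, both responded more in ER8Dof1.1 than in ER8PEAR2, by -1.54 for EXPA7 (adjusted p = 0.0141) and -2.10 for EXPA18 (adjusted p = 0.00125). The response of ER8Dof2.2 differed from that of ER8PEAR2 by -2.45 for EXPA7 (adjusted p = 0.00196) and by -3.29 for EXPA18 (adjusted p = 9.58e-05). Unlike CLE14, EXPA18 also differed between ER8Dof1.1 and ER8Dof2.2, by 1.19 (adjusted p = 0.0260, or 0.0642 after quantile normalization). The part of root hair cells in the change of CLE14 was not tested. Of the other genes of the list, TRY, which represses trichome fate in shoots and promotes root hair fate together with CPC, fell in ER8Dof1.1 at -1.58 ± 0.37 (adjusted p = 0.00753). It stood at -0.98 in ER8Dof2.2 (adjusted p = 0.0741) and -0.86 in ER8PEAR2 (adjusted p = 0.145). SCN1, which restricts hair initiation to a single site, changed by -0.46, -0.58 and -0.39 (SE 0.16; adjusted p = 0.0465, 0.0189 and 0.131). UPB1, a transcription factor gene of the root tip that controls the passage from division to elongation, fell as well, at -2.65, -2.29 and -1.28 (SE 0.19; adjusted p = 3.6e-06, 1.09e-05 and 0.000941), and was dim with estriol in ER8Dof1.1. Its response was also stronger there than in ER8PEAR2, by -1.36 (adjusted p = 0.0276), while the difference of ER8Dof2.2 from ER8PEAR2 was -1.005 (adjusted p = 0.125).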

How the data were processed

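The 12 arrays of root RNA were analysed as deposited. The deposited values are log2 signals, made with RMA per the submitters' processing notes, whose version and software were not given in the sources used here. Labelling used biotin, per the labels' protocols. Of 28583 entries, 17481 were on the list of probe genes and 16722 named 1 gene, while 759 named several. Entrez numbers matched 16574 to TAIR10.1 and names a further 148. The entry of highest mean stood for each of 148 genes that had more than 1, which left 16548 genes. Adjusted p-values are from limma 3.58.1 in R 4.3.3: 6 group means over 12 arrays, empirical Bayes moderation (6 residual and 3.94 prior degrees of freedom), two-sided, with Benjamini-Hochberg adjustment across the 16548 genes and a threshold of 0.05. Mock comparisons used values quantile normalized over all arrays and the others deposited values. Alternatives were other normalizations, a filter on dim genes, other moderation, array weights, fits to the compared lines alone, replicate blocks, all entries and each array left out.

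The members, lists and tests were chosen with earlier results of these data known. Named were the 3 genes, 5 genes most like each, the nearest tested gene on each side, at most 4 genes per list by smallest p, and CLE genes past the threshold in a difference between lines. CLE27 and CLE43 (at the threshold), CLE42 and PXL1 (to complete their lists) and the transgenes were named beside this rule. Gene lists were matched through RefSeq symbols and synonyms. The number of arrays limits the precision, and no depth applies. Same-numbered arrays of a line deviated together at correlations of 0.32, 0.17 and 0.13 in ER8Dof1.1, ER8Dof2.2 and ER8PEAR2, and those of different lines at -0.08 to 0.11. The numbers may pair arrays within a line, and the model does not use such pairs.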

Additional observations from a re-analysis of the deposited data

Results flagged for a closer look

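The change of CLE14 with estriol differed between lines by the test of the difference itself. The difference in change (log2) was -2.27 for ER8Dof1.1 minus ER8PEAR2 and -2.22 for ER8Dof2.2 minus ER8PEAR2, with limma's adjusted p = 0.00405 and 0.00572. All 4 estriol arrays of ER8Dof1.1 and ER8Dof2.2 stood lower after common normalization than both of ER8PEAR2. How many of all genes were apart in this way was not counted, so this is a description only. The genetic background of ER8Dof2.2 and ER8PEAR2 is given alike, and that of ER8Dof1.1 is not.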

How the results depend on the processing

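Both differences of CLE14 from ER8PEAR2 kept their direction and stayed past the threshold under 9 other settings and without each array. With same-numbered arrays as pairs (replicate block) they were -2.27 (limma's adjusted p = 0.0183) and -2.22 (0.0220), and with the number as a block across lines the adjusted p-values were 0.00655 and 0.00937. Neither block changed the call of any difference between lines for CLE1, CLE14 or CLE16. No mock difference passed after common normalization. On deposited values CLE1 turned to 0.21 and CLE16 to 0.13 (ER8Dof1.1 minus ER8Dof2.2), CLE14 to -0.13 (ER8Dof1.1 minus ER8PEAR2), and CLE1, CLE14 and CLE16 to -0.88, -0.66 and -0.62 (ER8Dof2.2 minus ER8PEAR2), where CLE1 was -0.0075 after 75th percentile centring. The arrays of the lines differ in their overall level there. In ER8Dof2.2, CLE14 changed by -3.80 and CLE16 by -1.28 after quantile normalization, and CLE16 by -1.4975 after 75th percentile centring. The causes of these shifts were not tested.

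Without single arrays, the difference in response between ER8Dof1.1 and ER8Dof2.2 ran from -0.44 to 0.41 for CLE1, -0.35 to 0.26 for CLE14 and -0.45 to 0.36 for CLE16. That of CLE1 ran from -0.23 to 0.61 against ER8PEAR2 for ER8Dof1.1 and from -0.05 to 0.46 for ER8Dof2.2. Mock differences ran from -0.25 to 0.36 (CLE14, ER8Dof1.1 minus ER8Dof2.2), -0.0387 to 0.57 and -0.47 to 0.33 (CLE14 and CLE16, ER8Dof1.1 minus ER8PEAR2), and -0.0856 to 0.41 and -0.0004 to 0.42 (CLE1 and CLE14, ER8Dof2.2 minus ER8PEAR2). Signs of differences near 0 thus rest on single arrays.

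Counts of genes past the threshold moved more. With all entries tested they were 10324, 8829 and 5621 for estriol against mock in ER8Dof1.1, ER8Dof2.2 and ER8PEAR2. In the order ER8Dof1.1 against ER8Dof2.2, ER8Dof1.1 against ER8PEAR2 and ER8Dof2.2 against ER8PEAR2, they were then 397, 854 and 490 for responses and 962, 775 and 1921 for mock roots, where deposited values gave 7312, 4756 and 13252. Fits to the compared lines alone gave 3095 for ER8Dof2.2, 154 for the first difference in response, and 85 and 708 for the first and the second mock difference. The first mock difference had 320 genes without dim genes and 120 with array weights, and 75th percentile centring gave 715 and 1681 for the others. Without single arrays the count was 1859 to 3184 for ER8PEAR2, 148 to 277, 180 to 640 and 111 to 355 for responses, and 33 to 717, 0 to 592 and 25 to 1112 for mock roots. The lowest of these came without ER8PEAR2 mock array 2, ER8Dof1.1 estriol array 1, ER8PEAR2 mock array 1 (for both others of the responses), ER8Dof2.2 mock array 1, either ER8PEAR2 mock array and ER8PEAR2 mock array 1. At the count of 0, limma found 2241 and 2196 genes at an unadjusted p under 0.05, without ER8PEAR2 mock array 1 and 2. A mean of several entries per gene could not alter the 3 genes, which have 1 entry each. The number of arrays limits all of these values.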
